A study of Homo sapiens with 4 samples.

Results

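Androgen-responsive genes are the genes whose transcription androgens are known to raise or lower, mostly from work on prostate cells. A set of 30 such genes was followed here among 19970 protein-coding genes, and every H3K27ac region whose deposited gene symbol was one of the 30 was taken as belonging to it. The rule that chose them uses no measured value, though the choice was made with earlier results of these data known. In control cells 44 of 19110 regions belonged to 15 of the 30 genes, and in testosterone-treated cells 2 of 604 regions belonged to 1 of them, ERRFI1.

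Acetylation of histone H3 at lysine 27 (H3K27ac) marks active promoters and enhancers, and ChIP-seq (immunoprecipitation of chromatin, then sequencing) measured it in KGN, an established cell line from a human ovarian granulosa cell tumor. All libraries came from KGN cells grown in DMEM-F12 medium with fetal bovine serum, and the labels name no genotype change. The control group had 1 immunoprecipitated (IP) library and 1 input library, with no vehicle given in the labels. The testosterone group had 1 IP library and 1 input library from cells given the hormone at 10 um, as the labels write it, for 24 h. The series title concerns loss of this acetylation after testosterone. There were no replicates, since each condition had 1 IP library, and the conditions were therefore compared without a test.

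Androgens act through a nuclear receptor that HSP90 chaperones hold until it binds hormone. The bound receptor pairs up on DNA at androgen response elements, which have a pair of 6-letter arms facing each other across a 3-letter spacer, and it recruits the acetyltransferases p300 and CBP, which acetylate H3K27. The glucocorticoid receptor reads nearly the same element, so that genes such as FKBP5, TSC22D3, SGK1, PER1 and ZBTB16 answer to both hormones. In the ovary, granulosa cells receive androgen from theca cells and convert it to estrogen with aromatase.

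Promoter sequences are shown for 4 members, chosen to set a marked against an unmarked promoter at low and at high CpG content. Each runs from 250 bases before to 50 bases after a gene start, from RefSeq on GRCh38.p14. Capitals mark each CG and each 6-letter arm, TGTTCT or its other-strand form AGAACA.
FKBP5, marked, chr6:35728534-35728833, minus strand: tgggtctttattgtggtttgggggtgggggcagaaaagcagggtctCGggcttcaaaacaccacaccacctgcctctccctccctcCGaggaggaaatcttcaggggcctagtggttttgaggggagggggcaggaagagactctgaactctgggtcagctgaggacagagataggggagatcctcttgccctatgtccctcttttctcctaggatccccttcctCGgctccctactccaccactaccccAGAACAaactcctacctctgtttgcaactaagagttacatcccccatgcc
ERRFI1, marked, chr1:8026260-8026559, minus strand: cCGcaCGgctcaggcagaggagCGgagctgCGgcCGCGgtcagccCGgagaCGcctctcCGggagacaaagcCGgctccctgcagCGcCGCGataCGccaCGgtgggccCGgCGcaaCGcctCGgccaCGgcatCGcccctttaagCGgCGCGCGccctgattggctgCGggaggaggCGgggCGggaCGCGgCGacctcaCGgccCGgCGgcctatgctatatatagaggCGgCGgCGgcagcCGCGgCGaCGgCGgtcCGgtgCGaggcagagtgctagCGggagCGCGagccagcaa
KLK3, not marked, chr19:50854665-50854964, plus strand: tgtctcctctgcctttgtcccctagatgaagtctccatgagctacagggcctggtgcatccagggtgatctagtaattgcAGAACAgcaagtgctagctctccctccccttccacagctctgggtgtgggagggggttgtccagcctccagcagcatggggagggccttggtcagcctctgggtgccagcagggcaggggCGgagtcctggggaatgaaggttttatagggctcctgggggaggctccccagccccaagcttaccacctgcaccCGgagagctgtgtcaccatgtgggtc
ALDH1A3, not marked, chr15:100879581-100879880, plus strand: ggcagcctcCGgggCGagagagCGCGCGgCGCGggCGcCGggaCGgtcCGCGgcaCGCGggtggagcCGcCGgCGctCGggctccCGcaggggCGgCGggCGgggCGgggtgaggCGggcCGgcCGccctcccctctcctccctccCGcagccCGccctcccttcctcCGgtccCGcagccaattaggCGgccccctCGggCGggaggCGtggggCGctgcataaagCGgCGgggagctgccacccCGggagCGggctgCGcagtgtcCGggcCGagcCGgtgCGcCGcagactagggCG
The FKBP5 window lay wholly inside a control H3K27ac region (300 of 300 bases) and held 3 CG. Of the ERRFI1 window, 142 bases lay in a control region, and it held 47 CG. The KLK3 window held 2 CG and the ALDH1A3 window 46, and neither touched a region in control or testosterone-treated cells. FKBP5 had AGAACA from the first transcribed base on, and KLK3 had it with its first base 170 bases before the start, in the proximal promoter where an androgen response element is known from prostate work. ERRFI1 and ALDH1A3 had neither form of the arm in these windows.

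RefSeq promoter windows were found for 25 of the 30 genes, 43 windows in all. The full element, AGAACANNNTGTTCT, which reads the same on both strands, occurred in none of them and in none of the 22131 windows of coding genes. A single arm, TGTTCT or AGAACA, occurred in 6 member windows (13.95%), at FKBP5, KLK3, PMEPA1, SGK1 and TRPM8, and in 11.7% of all coding windows. The arms would also count inside a full element, and no match says only that these letters are not in these windows. The GC box letters GGGCGG, searched on both strands, were in 60.5% of member windows and 56.3% of all. The ratio of observed to expected CG had a median of 0.911 over 15 windows of members with a marked promoter and 0.590 over 28 windows of the others. Over all coding genes these medians were 0.824 and 0.584, close to those of the members. Windows were sorted by whether their gene was marked, and 8 of the 15 and 1 of the 28 themselves touched a control region. FKBP5 at its outermost start was a marked promoter with a ratio of 0.130. Its other window, at a start within the gene (chr6:35688866-35689165), had a ratio of 0.911 and 0 bases in a control region.

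Positions are on GRCh38. Fold enrichment is the authors' value, the signal at the summit over the local background, each plus 1. Pileups were whole multiples of 0.937 in the control table and of 1 in the testosterone table, within 0.02, and this step was read as 1 IP fragment. Fragment numbers below rest on that reading, and their exact Poisson 95% intervals cover counting error only. The lowest local background per base of the shortest region, 231 bp in control and 223 bp with testosterone and taken as the fragment length, places the testosterone IP at 1.03 times the depth of the control IP. The fewest fragments at a called summit were 7 in control and 8 in testosterone-treated cells. Because the caller scaled each table to its own libraries, folds describe a region within its table and do not measure a change.

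The first question was how many of the genes carried the mark. In control cells 12 of 30 members (40%) had a promoter region, within 1 kb of the annotated start of the gene, and 15 had a region of any kind. Among all coding genes 41% had a promoter region and 48.2% had any. The members' shares were near those of the genome. After testosterone no member had a promoter region, where 0.931% of coding genes did. A region of any kind was found at 1 member, where 2.41% of coding genes did, and of the 9622 coding genes with any control region 4.51% had one. The fold of the strongest promoter region of the 12 marked members ranged from 3.36 to 10.8 with a median of 6.27, and over all 8186 marked coding genes the median was 5.86 (interquartile range 4.62 to 7.51). Of the 12 members, 7 lay above that median.

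**Figure D1:**
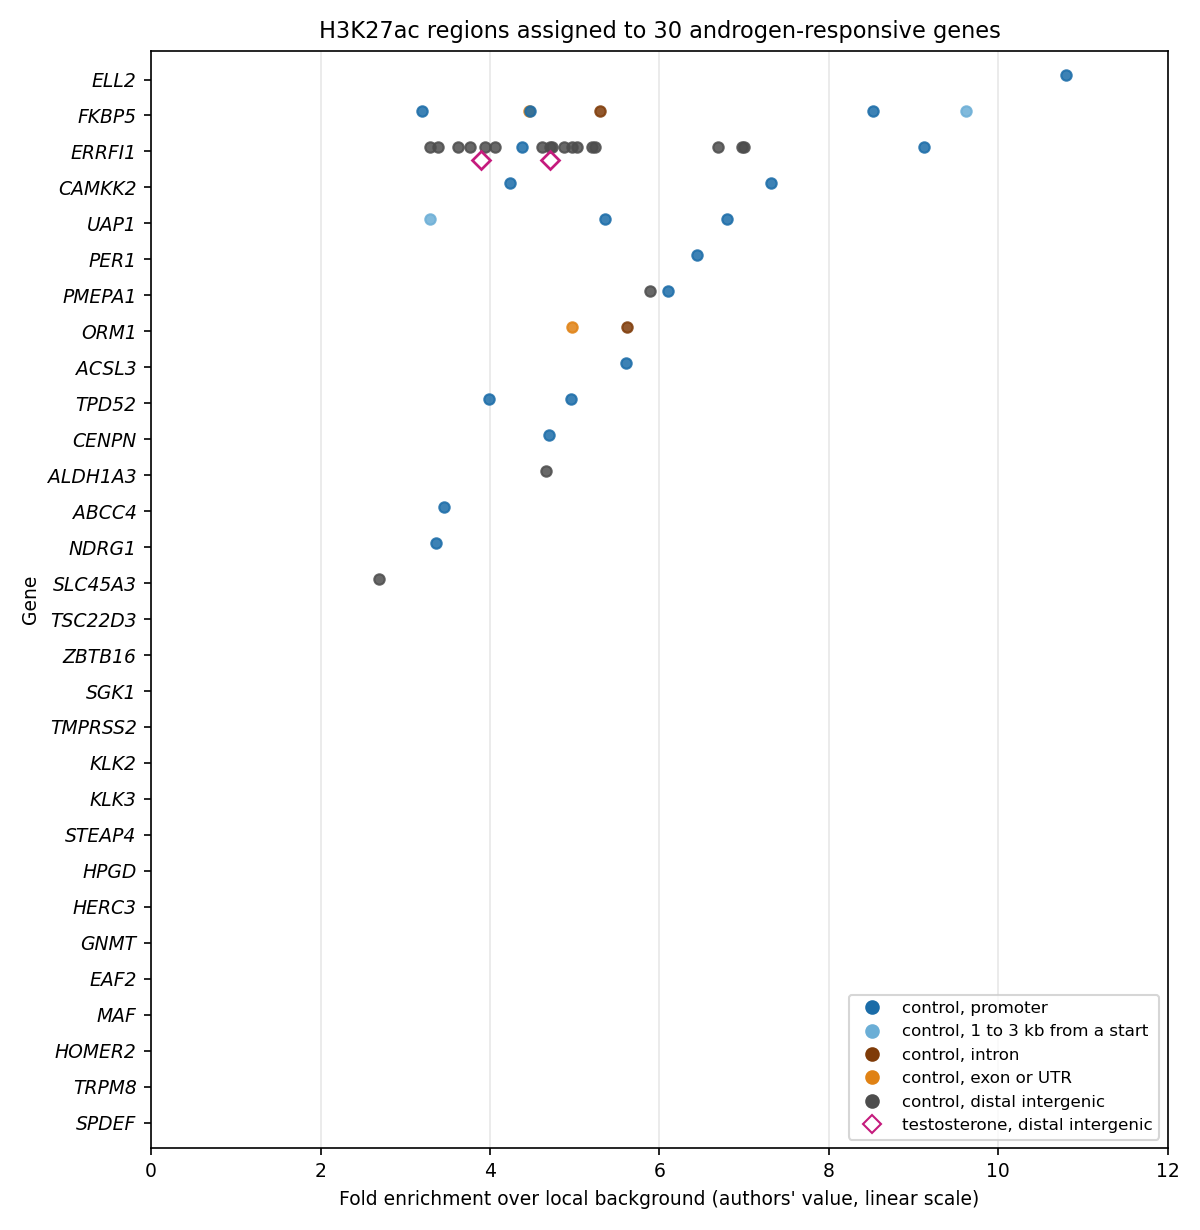
Fold enrichment (horizontal, linear) of each H3K27ac region assigned to each of the 30 genes (vertical, by highest control fold). Filled points are control regions colored by position and open diamonds are testosterone regions; ELL2 reaches the highest fold, ERRFI1 alone has diamonds, and 15 genes have no point.

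The members are described below in groups by role. These groups are too small to compare with the 41% of coding genes that had a control promoter region. Genes of transcription and of the receptor's chaperones came to 8, and 3 of them, ELL2, FKBP5 and PER1, were marked. ELL2 encodes an elongation factor that helps RNA polymerase II move through genes. Its promoter region (chr5:95960776-95961846) was 1071 bp wide, lay across the gene start and had 23 fragments at the summit (14.6 to 34.5) over a local background of 1.16, a fold of 10.8. No member promoter was higher, and 4.45% of marked coding genes were. The region was also on or within 1 kb of the RefSeq genes CAST and LOC101929710. After testosterone the nearest region to ELL2 was 8560 kb away.

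FKBP5 encodes a co-chaperone of HSP90 in steroid receptor complexes, and its induction by androgens and glucocorticoids is a standard readout of both receptors. Control cells had 6 regions credited to it, 3910 bp in all. The region on its outermost start (chr6:35728186-35729488) was 1303 bp wide, with 27 fragments at the summit (17.8 to 39.3) and a fold of 8.52. A further region 2.73 kb upstream (chr6:35731309-35732618) was of like width, 1310 bp, and had the highest fold of the gene, 9.61, from 33 fragments (22.7 to 46.3). It lay on or within 1 kb of ARMC12 and not of FKBP5, so its gene is uncertain. A narrow region of 400 bp, fold 4.47, lay 731 bp inside the gene. This region, the one on the outermost start and the one upstream were also on or within 1 kb of the RefSeq gene LOC285847. Deeper in the gene, 2 regions lay 8.19 and 9.45 kb from the start, one on an exon annotated as an untranslated region (UTR) (fold 4.46) and one in intron 2 of 11 (fold 5.29). The sixth (chr6:35688537-35688782) lay 134 bp downstream of another annotated start, within the gene, with 15 fragments (8.40 to 24.7) and a fold of 3.20. The region on the outermost start was therefore wider and higher than those inside the gene. Testosterone-treated cells had no region on or near it, and the nearest one lay 704 kb from the gene.

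**Figure D2:**
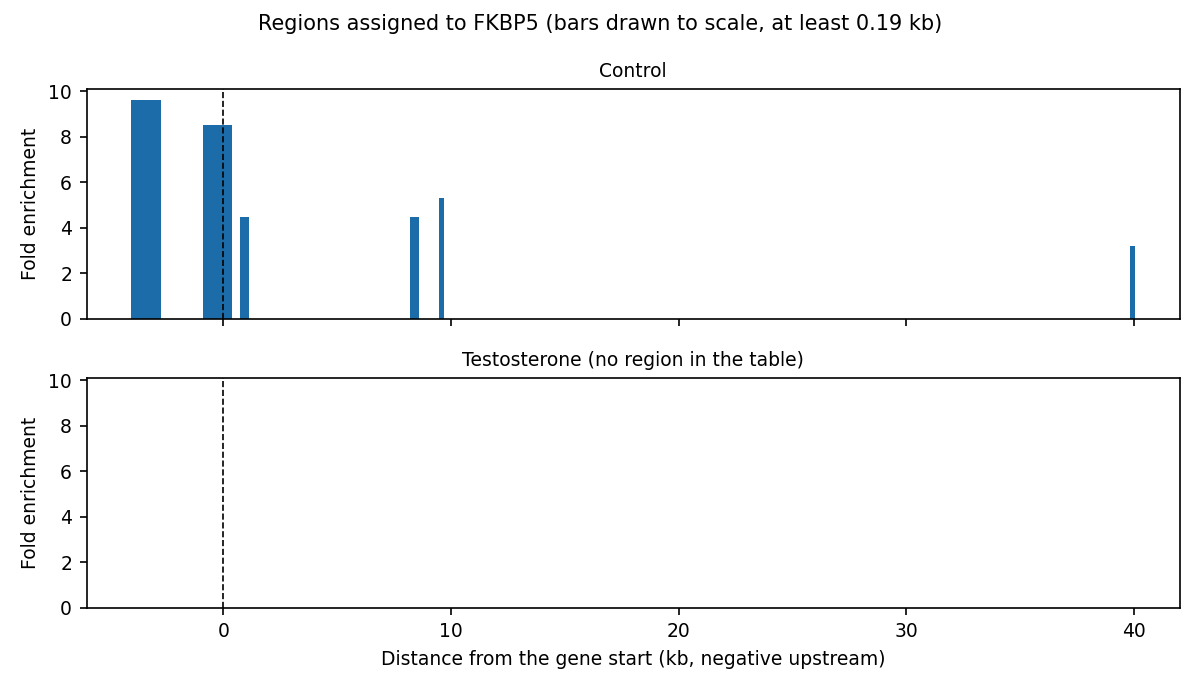
Control (upper) and testosterone (lower) H3K27ac regions assigned to FKBP5, as fold enrichment against distance from the outermost gene start (dashed line, kb). Control cells have broad regions of folds 8.52 and 9.61 at and upstream of the start and 4 lower ones inside the gene, and testosterone-treated cells have none.

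PER1 encodes a repressor of the circadian clock that steroid receptors induce. Its 1 control region (chr17:8155812-8156154), 343 bp wide with 20 fragments (12.2 to 30.9) and a fold of 6.44, lay 202 bp inside an annotated transcript. RefSeq ends the gene short of it, with a gap of 3.41 kb, so whether it is a PER1 promoter depends on the annotation. TSC22D3, the glucocorticoid-induced leucine zipper, ZBTB16, a zinc finger repressor, EAF2, a partner of the ELL factors, MAF, a basic leucine zipper factor, and SPDEF, an ETS factor of epithelium, had no region in either condition. The nearest control region to any of these 5 was 10.997 kb from SPDEF, and MAF lay 1100 kb from the nearest.

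Signaling genes came to 7, and 4 of them were marked. ERRFI1, a feedback inhibitor of the epidermal growth factor receptor, held 19 of the 44 control regions (43.2%) and both testosterone regions. As many regions or more were credited to 0.0901% of coding genes, 18 genes with ERRFI1 counted among them. ERRFI1 is set out at length because of these values. Its promoter had a region just above the start (chr1:8026418-8026827) with 29 fragments (19.4 to 41.6) and a fold of 9.12, and another 810 bp upstream with 27 fragments (17.8 to 39.3) and a fold of 4.38. The fragment numbers of the pair hardly differed, and the local background was 2.23 fragments at the first and 5.34 at the second.

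The other 17 control regions of ERRFI1 lay between genes, upstream of the start, from chr1:8046470 to 8170497. They were spread over 124 kb, at 13.7 regions per 100 kb, where the chromosomes analysed had 0.633. The stretch was bounded by its own first and last region and picked for its number of regions, so a high density was built in. All were credited to ERRFI1 by symbol, the farthest from 143.8 kb away, so their target gene is uncertain. They were narrow, from 231 to 471 bp with a median of 283 bp, and together covered 5228 bp. Their folds ranged from 3.29 to 6.99 with a median of 4.73, close to the 4.70 of all distal control regions. Their summits had from 7 to 18 fragments, with a median of 13. The stretch, picked for the number of its regions, thus did not stand out by their height. A group of 7 lay 52.9 to 73.9 kb upstream, and 2 of its regions had folds of 6.97 and 6.69. The highest distal fold, 6.99, was at chr1:8056847-8057129, 30.5 kb upstream. By number of distal regions ERRFI1 had rank 4 among 1571 coding genes with any, level with 2 others, after NTMT1, IER5L and ID2. Most of the regions lay on or within 1 kb of ERRFI1-DT, a non-coding RNA gene that starts beside ERRFI1.

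Testosterone-treated cells had 2 regions in this stretch. The region at chr1:8063057-8063289, 36.7 kb upstream, had 8 fragments at the summit (3.45 to 15.8) over a background of 1.31 and a fold of 3.89. It shared 218 bp with a control region (chr1:8062999-8063274) that had 11 fragments (5.49 to 19.7) and a fold of 4.87, and the summits were 82 bp apart. The counting intervals of the pair overlapped, but they hold no spread between libraries, and a difference was not tested. The other, at chr1:8096577-8096894, 70.3 kb upstream, had 11 fragments (5.49 to 19.7) over a background of 1.55 and a fold of 4.71. It lay in a gap of the control list, 2009 bp from the control region on one side and 3342 bp from that on the other. Both were weak or middling within their own table: 566 of 604 testosterone regions had a higher fold than the first and 279 than the second, and the -log10 q was 1.36 and 2.36. Over the whole list of control regions 0.884% overlapped a testosterone region, and of the members' 44 regions 1 did. Of the testosterone regions 28.1% overlapped a control region, and of the members' 2 regions 1 did.

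**Figure D3:**
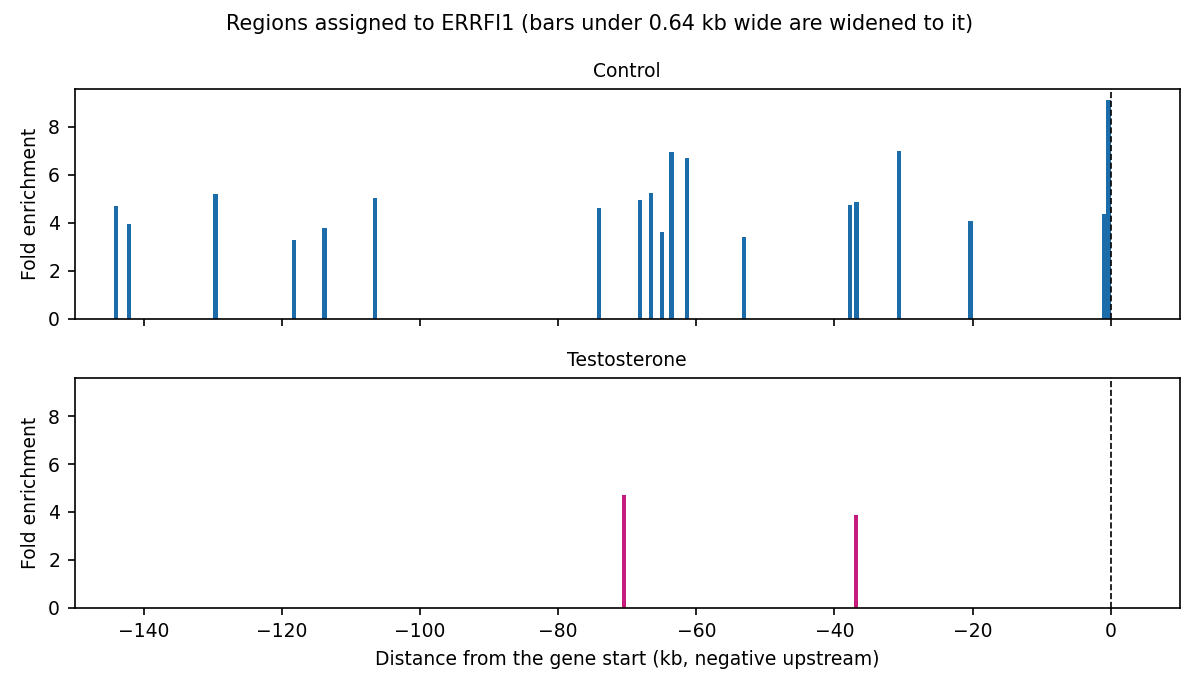
Control (upper) and testosterone (lower) H3K27ac regions assigned to ERRFI1, as fold enrichment against distance from the gene start (dashed line, kb). Control cells have 2 regions at the start and 17 upstream, and testosterone-treated cells have 2, at 36.7 and 70.3 kb upstream and none at the start.

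CAMKK2, a calcium-dependent kinase that acts on AMP-activated kinase and a known androgen target in prostate cells, had a pair of control promoter regions across neighboring start sites. The outer one (chr12:121296950-121297635) had 38 fragments (26.9 to 52.2) and a fold of 7.32, and the inner one (chr12:121295801-121296703) had 17 (9.90 to 27.2) and a fold of 4.23. A RefSeq transcript start lay in the gap between them, and the RefSeq gene reached beyond both. PMEPA1, an inhibitor of TGF-beta signaling, had a promoter region (chr20:57710027-57710462) with 25 fragments (16.2 to 36.9) and a fold of 6.10, on or within 1 kb of the antisense gene NKILA too. It also had a distal region 91.8 kb upstream, fold 5.89. NDRG1, a stress-responsive gene of cell differentiation, had a weak promoter region (chr8:133297766-133298012) with 15 fragments (8.40 to 24.7) over a background of 3.71 and a fold of 3.36. RefSeq ends the gene short of this region, with a gap of 0.513 kb. Of marked coding genes 95.1% had a higher fold.

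SGK1, a kinase that steroid hormones induce, HERC3, a ubiquitin ligase, and HOMER2, a scaffold protein, had no region by symbol. The symbol missed regions at 2 of these. At HERC3 a region of fold 5.62 (chr4:88523425-88523781), credited to the non-coding gene AC098582.1, covered 189 of the 300 bases around the HERC3 start. At HOMER2 a region of fold 6.57 (chr15:82985781-82986467), credited to RAMAC, which encodes a cofactor of mRNA cap methylation, covered the outer end of the gene. The control region nearest SGK1 was 216 kb from the gene.

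Genes of metabolism and transport came to 8, of which 3 were marked at the promoter. UAP1, which makes UDP-N-acetylglucosamine for glycosylation, had regions on both sides of its start. The upstream one (chr1:162560893-162561318) had 23 fragments (14.6 to 34.5) and a fold of 6.79, and the downstream one (chr1:162561781-162562278) had 17 (9.90 to 27.2) and a fold of 5.36. Another, fold 3.29, lay 1743 bp inside the gene. ACSL3, which activates long-chain fatty acids, had 1 region over the start of an annotated transcript (chr2:222861114-222861759). It was 646 bp wide, with 16 fragments (9.15 to 25.98) and a fold of 5.60. The RefSeq gene starts just outside this region, at chr2:222861036. ABCC4, an exporter of cyclic nucleotides and drugs, had a weak region (chr13:95301420-95301770) with 10 fragments (4.80 to 18.4) and a fold of 3.46, and no testosterone region lay anywhere on its chromosome.

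ALDH1A3, which makes retinoic acid, had only a distal region 52.2 kb upstream, fold 4.67, and its CpG-rich promoter had none. GNMT, a glycine methyltransferase, HPGD, which breaks down prostaglandins, STEAP4, a metalloreductase, and TRPM8, a cold-sensing ion channel, had no region in either condition.

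Genes of secretory and prostate-linked proteins came to 6. TPD52, a gene of vesicle traffic, was the only one of them marked at its promoter, by regions of folds 4.96 and 3.98 on chromosome 8, at 80170122 to 80170357 and 80171308 to 80171794, with 10 fragments (4.80 to 18.4) and 16 (9.15 to 25.98). KLK2 and KLK3, kallikreins of seminal fluid of which KLK3 is prostate-specific antigen, and TMPRSS2, a surface protease, had no region in either condition. The control region nearest KLK3 was 18.97 kb from it and credited to KLK15. SLC45A3, a transporter of prostate epithelium, had 1 distal control region 13.4 kb upstream, with 19 fragments over a background of 6.41. Its fold of 2.69 ranked 19020 of 19110, so it was among the weakest called. ORM1, a plasma glycoprotein of the acute phase, had 2 control regions, 35.5 and 32.1 kb upstream (folds 5.62 and 4.97). Both lay inside COL27A1, a collagen gene, in intron 41 of 60 and an annotated UTR, so ORM1 was only the nearest start. CENPN, a centromere protein gene, had a region on its start (chr16:81007235-81007511) with 39 fragments (27.7 to 53.3), the most of any member, but over a background of 7.47, which gave a fold of 4.69. Its start faces that of CMC2, which had a region of its own of fold 5.66.

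**Figure D4:**
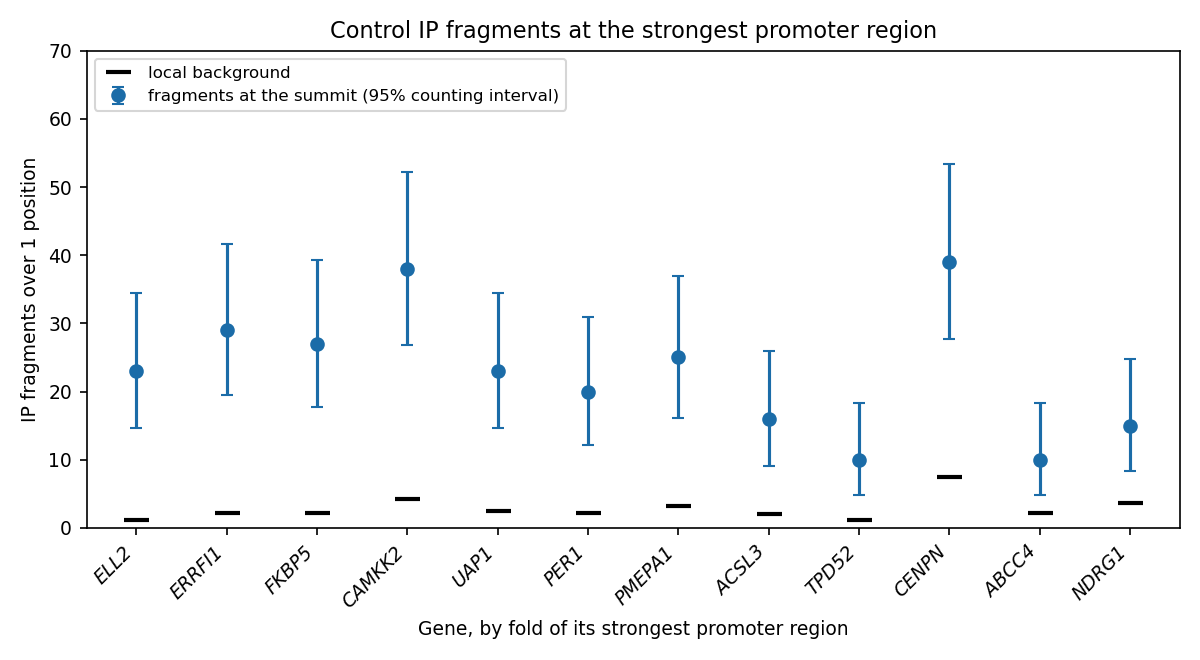
IP fragments at the summit of the strongest control promoter region (points, exact Poisson 95% intervals) and the local background there (black dashes) for the 12 members with one, ordered by fold. CENPN and CAMKK2 have the most fragments, 39 and 38, but ELL2 has the highest fold because its background is 1.16.

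By position, 18 of the members' 44 control regions were at promoters (40.9%), 2 lay 1 to 3 kb from a start, 2 were in introns, 2 on exons or UTRs and 20 were distal intergenic (45.5%). Over all control regions 57.2% were at promoters, 13.1% in introns and 16.1% distal. This excess of distal regions was that of ERRFI1: without it, 16 of 25 member regions were at promoters (64%) and 3 were distal (12%), a setting chosen after seeing the data. FKBP5, ERRFI1, CAMKK2, TPD52 and UAP1, 5 of 30 members, had 2 or more promoter regions, where 10.4% of coding genes did. The lowest -log10 p of a called region was 3.71 in the whole control table and 4.92 in the whole testosterone table. The testosterone signal under the members' control regions is not in a list of called regions, so its difference from control at any member was not measured. The members nearest to a testosterone region were ERRFI1 and SLC45A3, at 36.7 and 71.6 kb from the gene.

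The wider androgen pathway was then set beside the members. Of 78 other genes known to respond to androgen, 56 had a control promoter region (71.8%), against 41% of coding genes, with a median of 6.12 for the strongest fold. In testosterone-treated cells the 1 of 78 with a promoter region (1.28%, where 0.931% of coding genes had one) was KLF9, which encodes a zinc finger factor. That region had 11 fragments and a fold of 5.31, and it overlapped a control region. In control cells KLF9 had a promoter region of fold 3.95 and another region of fold 5.58. Folds do not measure a change between the conditions. Distal testosterone regions were credited to SLC38A2, an amino acid transporter gene, 4 in number with folds up to 6.08, and to ITGAV, an integrin gene, 1 with a fold of 3.61.

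The glucocorticoid receptor gene NR3C1 had no region in either condition, and the nearest control region was 507 kb from it. A missing region says only that none was called at this depth. Of 20 genes of steroid receptors, their chaperones and cofactors, 15 (75%) had a control promoter region, where 41% of coding genes did. The highest folds were those of EP300, which encodes p300, at 11.3 and BAG1, a co-chaperone gene, at 9.004. NCOA2, a coactivator gene, was the 1 of the 20 with a testosterone region, in an intron (fold 4.47). Of 21 genes that make or break down androgens 5 (23.8%) had a control promoter region and 7 a control region of any kind. Among all coding genes 41% and 48.2% did. The highest promoter folds of the 21 were those of the 5-alpha-reductase family genes SRD5A3 (8.76) and SRD5A1 (5.95). None of the 21 had a testosterone region.

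**Figure D5:**
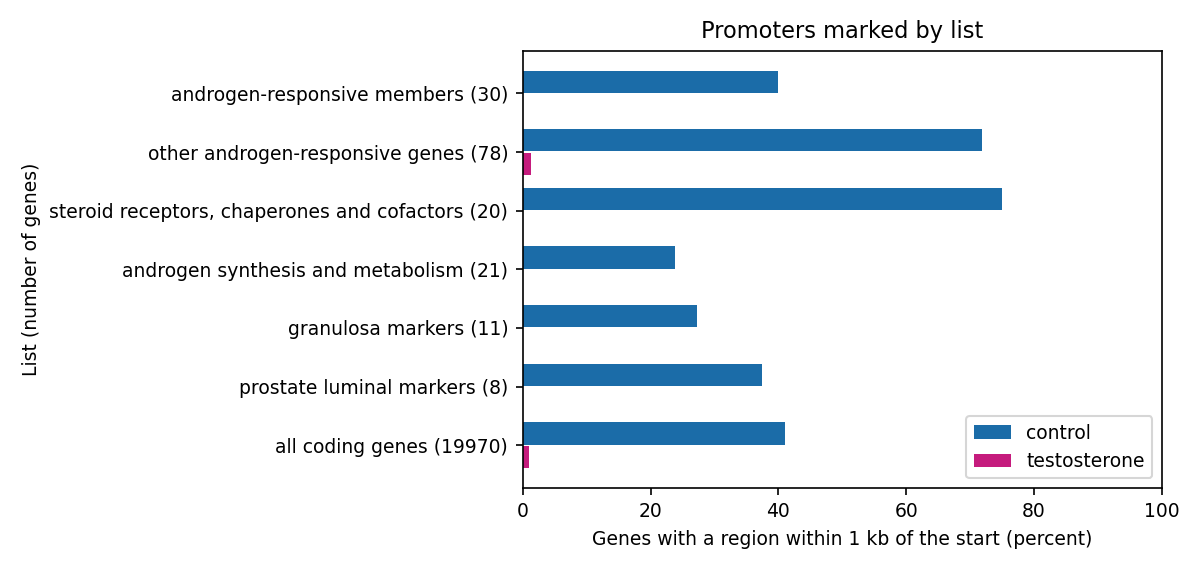
Percent of genes with an H3K27ac region within 1 kb of the start in control (blue) and testosterone-treated cells (pink), for the 30 members, other lists and all coding genes. The members stand at 40% beside 41% of all coding genes in control cells, and testosterone shares are at most 1.28%.

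Cell type markers were checked in the control table. Of 11 granulosa markers 3 (27.3%) had a promoter region, where 41% of all coding genes did. They were FOXL2, a regulator of granulosa identity (10.7), INHBB, an inhibin subunit gene (6.04), and KRT18 (5.33). AMH, FSHR and CYP19A1, which encode anti-Müllerian hormone, the follicle-stimulating hormone receptor and aromatase, had no region in either condition. INHA, INHBA, AMHR2 and GATA4 had none either, and NR5A1 had 2 control regions, neither at its promoter. Of 8 prostate luminal markers 3 (37.5%) had a promoter region, among them HOXB13 (6.04) and FOLH1. Those that are also members, KLK2, KLK3, TMPRSS2 and SLC45A3, did not. HOXB13 also stands in a pathway list above. Of 4 oocyte markers 1 did, GDF9 (4.51), and of 5 theca and stroma, 4 blood and 3 endothelial markers none did. No marker had a testosterone region.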

How the data were processed

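For each condition the authors deposited 1 list of called regions, made from 1 IP library and the matching input. Per the submitters' processing notes the tools were MACS2, Bowtie2 2.0, bedtools and ChIPseeker, with the builds hg38 and mm10 named and no caller settings. Pileup is the deposited signal at the summit, fold enrichment is a deposited ratio, and 2 further deposited columns hold the -log10 p and the -log10 q. The testosterone table has lost the headers of these, and they were identified by order and by a Poisson tail computed from pileup and fold (largest difference 5.47e-05). The date into which 1 symbol had been turned was undone. Local background was solved from pileup and fold, and the fragment step from the spacing of pileups. Total reads per library were not used, and relative IP depth was inferred from the lowest backgrounds.

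Regions were assigned by the deposited symbol, on chromosomes 1 to 22 and X (23 in all). Coding genes, gene bodies and promoter sequences came from RefSeq on GRCh38.p14. Shared regions overlapped by at least 1 bp. Members, lists and comparisons were chosen with earlier results of these data known. All 30 members are given, and of each other list its counts, its 2 highest control promoter folds and any gene with a testosterone region, apart from a few genes not reported here. The overlap code was tested on simulated data. Python 3.11.15 with pandas 2.3.3, numpy 2.4.6 and scipy 1.17.1 was used.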

Additional observations from a re-analysis of the deposited data

How the results depend on the processing

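Of 47 values under alternatives, 29 stayed within 1.5 times the main count or within the main value's spread and 18 did not. Of the 18, 2 are in another unit (pileup and -log10 p in place of fold) and so are no move of the result. With all promoter regions of a gene in place of its strongest, the members' median fold was 5.16, below the 5.40 over all coding genes. The main setting had the members higher, at 6.27 against 5.86. No member had a testosterone promoter region under any of the settings run, and the number with a control promoter region was 12 with windows of 500 bp and 3 kb and at least 9 at stricter thresholds. With -log10 q held to 5 or more, the members had 20 control regions and 0 testosterone regions, so that 0 members were marked after testosterone and 0 control regions were shared. At a fold of at least 4, 1 testosterone region remained and 0 control regions were shared. Taking every region on a gene or within 1 kb of it, in place of the symbol, gave 25 control regions, 88% of them at promoters, 0 testosterone regions, 0 members marked after testosterone and 0 shared, and it added HERC3 and HOMER2 and lost ALDH1A3, ORM1, PER1 and SLC45A3. Without ERRFI1, chosen after seeing the data, 25 control and 0 testosterone regions remained and 64% of the former were at promoters. Counting gaps of at most 1 kb as shared gave 2 control regions, and of at most 10 kb gave 9. The median of the members' strongest promoter regions was a pileup of 21.5 or a -log10 p of 13.8, where all marked coding genes had 19.7 and 11.2. No paired analysis was possible because each condition has 1 IP library and no result comes from a test. Summits of 7 to 39 fragments limit every value.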
